A study of Homo sapiens with 9 samples.

Results

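CERCAM and 6 genes of collagen hydroxylation were followed through 9 messenger RNA libraries of SKNO-1 cells: the lysyl hydroxylases PLOD1, PLOD2 and PLOD3 and the prolyl 4-hydroxylase subunits P4HA1, P4HA2 and P4HB. These are 7 of the 25680 gene symbols in the count files. CERCAM was chosen by its measured difference between the 2 shRNAs against ASXL2 in these same libraries (SH3 against SH2), so its values in any comparison of shRNA groups are given as a description with no test. The other 6 genes were added by the enzymes they encode, and each gene was read from its RefSeq row with the highest total. SKNO-1 is a human acute myeloid leukaemia line, and the labels of all 9 samples give it the AML1-ETO fusion (written AML-ETO there). The groups were EV, the control, and SH2 and SH3, each with another shRNA against ASXL2, a chromatin regulator that belongs with the Polycomb and Trithorax proteins. The study describes its control as a control shRNA, and what EV stands for is not explained. Each group held 3 samples, numbered 1, 13 and 25 in the labels with no account of what the numbers mean. The study calls them biological triplicates but does not describe how they were made. The p values measure the spread between these samples. The extraction text speaks of sorted bone marrow cells, although title and source name the cell line, which was followed here.

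Collagen chains are modified in the endoplasmic reticulum before they fold into a triple helix. Prolyl 4-hydroxylase, a tetramer of P4HA catalytic subunits and the P4HB subunit, adds the hydroxyl groups that make the helix stable at body temperature, while the PLOD enzymes hydroxylate lysines that later carry sugars and cross-links. The PLOD and P4HA enzymes use oxygen, iron, ascorbate and 2-oxoglutarate, and several of their genes are textbook targets of the hypoxia-inducible factors. CERCAM is named as an adhesion molecule of brain endothelium and resembles the collagen galactosyltransferases COLGALT1 and COLGALT2 in sequence. Fibroblasts and bone cells are the cells best known for this pathway, and blood cells make little fibrillar collagen.

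Totals with 1 RefSeq row per gene were between 27714431 and 35406063 counts per sample, so 3 counts, the smallest level taken as seen, corresponded to between 0.0825 and 0.109 CPM (counts scaled to an effective library size, the unit of all levels below). ASXL2 was between 67.9 and 74.7 CPM in EV, between 30.4 and 36.2 CPM in SH2 and between 26.9 and 41.1 CPM in SH3, so all 6 shRNA samples lay below the 3 EV samples. One library stood apart. On the first principal component of log2 CPM, with 52.9% of the variance, SH3 number 1 scored -58.6, EV number 1 scored -24.9 and SH2 number 1 scored -21.2, against 4.84 to 25.0 for the other 6 samples. Results that rest on SH3 number 1 are therefore given with and without it. Of 9 myeloid blast markers 8 passed the filter on low counts, led by MPO at up to 10243 CPM, while CD34 was at most 0.309 CPM, and their summed level was 7435 to 11534 CPM. Of 8 fibroblast and stromal markers only PDGFRB passed the filter, at 0.935 to 1.97 CPM, and COL1A2 was at 0 in every library. The summed stromal level was 1.31 to 2.15 CPM in the samples numbered 1 and 1.20 to 2.20 CPM in the other 6.

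All 7 genes are protein-coding, and their positions are given on GRCh37, the build of the files. CERCAM lies at chr9:131174030-131199630 on the plus strand and was read from row NM_016174. Its other row, NM_001286760, held 96.8% to 98.1% of that count in every sample, so the choice of row hardly mattered. PLOD1 (NM_000302) lies at chr1:11994262-12035595 on the plus strand, PLOD2 (NM_000935) at chr3:145752926-145881512 on the minus strand and PLOD3 (NM_001084) at chr7:100849258-100861701 on the minus strand. P4HA1 (NM_001017962) lies at chr10:74766975-74856732, P4HA2 (NM_004199) at chr5:131525840-131631008 and P4HB (NM_000918) at chr17:79801035-79818732, all on the minus strand. The 3 prime end of P4HA2 overlaps the long noncoding RNA P4HA2-AS1 (chr5:131520569-131528501, plus strand). The libraries carried no strand, so reads from the shared stretch cannot be told apart. P4HA2-AS1 was between 0.154 and 2.66 CPM.

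Levels of different genes were compared per kilobase of the annotated canonical transcript. In EV, P4HB was by far the highest, at 541 ± 62.7 CPM per kb (SD, n = 3, as for the values that follow). P4HB encodes protein disulphide isomerase, which also folds other secreted proteins outside the prolyl 4-hydroxylase tetramer. PLOD3, which hydroxylates lysines and also adds sugars to them, was at 38.1 ± 4.10 CPM per kb. PLOD1, the enzyme for lysines of the helix, was at 34.0 ± 10.7 CPM per kb, P4HA1, the main catalytic prolyl hydroxylase subunit, at 31.1 ± 24.5 CPM per kb and CERCAM at 20.4 ± 0.695 CPM per kb. From PLOD3 down to CERCAM each gene differed from the next by less than the larger SD of the pair. PLOD3, at 35.1 to 42.8 CPM per kb, and PLOD1, at 27.3 to 46.4 CPM per kb, nonetheless lay above CERCAM, at 19.6 to 20.9 CPM per kb, in all EV samples, while P4HA1 ranged across all 3. P4HA2, the second catalytic subunit, followed at 0.673 ± 0.431 CPM per kb. PLOD2, the lysyl hydroxylase for the ends of the chain, had no count in any of the 9 samples in either of its 2 rows. With 0 counts, levels up to 0.0825 to 0.109 CPM per library could have gone unseen, and these limits cover counting error only.

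The ratio of the subunits followed the sample number. Per kilobase, P4HA1 came to 11.98%, 12.5% and 22.5% of P4HB in EV, SH2 and SH3 number 1. In the other 6 samples it came to between 2.43% and 5.75%. PLOD1 exceeded PLOD3 per kilobase in the 3 samples numbered 1, by 1.32 times in EV, 1.44 times in SH2 and 1.78 times in SH3, and was below it in the other 6, at 0.590 to 0.829 times. Of 44 collagen chain genes in the files 12 passed the filter and 10 had no count at all. COL9A2, at 7.80 to 24.8 CPM, and COL18A1, at 16.2 to 23.5 CPM, reached the highest levels. Of 11 genes for fibrillar chains 3 passed the filter, COL24A1 at up to 13.3 CPM, COL5A2 at up to 8.58 CPM and COL2A1 at up to 3.82 CPM, and the other 8, COL1A1 and COL3A1 among them, did not exceed 0.138 CPM.

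Promoter sequence is shown for the 3 genes that moved with the sample number (P4HA1, P4HA2 and PLOD1, below) and for PLOD2, which had no count. Each run is the 250 bases before the gene's RefSeq start on GRCh38.p14, 5′ to 3′ on the strand of the gene, and capitals mark ACGTG or GCGTG on either strand, the letters at the core of sites for hypoxia-inducible factors. All 7 genes matched an entry in the RefSeq promoter table, CERCAM with 2 starts. The windows are chr10:73096867-73097116 (minus) for P4HA1, chr5:132227092-132227341 (minus) for P4HA2, chr1:11934467-11934716 (plus) for PLOD1 and chr3:146161185-146161434 (minus) for PLOD2.
P4HA1: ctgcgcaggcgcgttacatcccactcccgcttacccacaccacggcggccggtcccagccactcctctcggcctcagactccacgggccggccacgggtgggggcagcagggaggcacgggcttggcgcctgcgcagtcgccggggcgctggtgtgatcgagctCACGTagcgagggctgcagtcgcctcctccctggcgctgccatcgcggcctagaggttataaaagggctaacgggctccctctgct
P4HA2: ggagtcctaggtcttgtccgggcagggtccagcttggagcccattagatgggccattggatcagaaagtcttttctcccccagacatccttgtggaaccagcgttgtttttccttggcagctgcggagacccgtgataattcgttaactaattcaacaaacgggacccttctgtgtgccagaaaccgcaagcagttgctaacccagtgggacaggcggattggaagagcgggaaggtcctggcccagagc
PLOD1: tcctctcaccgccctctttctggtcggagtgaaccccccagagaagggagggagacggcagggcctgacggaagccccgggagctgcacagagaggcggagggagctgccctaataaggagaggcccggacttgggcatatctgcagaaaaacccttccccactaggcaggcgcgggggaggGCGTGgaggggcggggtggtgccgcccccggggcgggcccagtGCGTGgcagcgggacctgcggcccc
PLOD2: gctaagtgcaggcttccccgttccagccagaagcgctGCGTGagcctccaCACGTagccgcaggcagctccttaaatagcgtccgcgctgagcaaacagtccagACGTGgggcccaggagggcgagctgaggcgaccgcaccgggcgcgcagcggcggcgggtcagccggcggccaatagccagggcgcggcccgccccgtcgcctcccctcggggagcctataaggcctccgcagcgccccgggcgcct
P4HA1 held 1 match, written CACGT because ACGTG reads on the other strand, PLOD1 held 2 of the GCGTG form, and P4HA2 held none in this window. PLOD2 held 3, of which 2 were ACGTG. P4HB held 1 match, PLOD3 none, and the CERCAM starts held 0 and 1. Of all 35116 promoter windows of this length, 43.2% held at least 1 match and 18.5% held ACGTG, so a match is common and describes the letters only.

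The samples numbered 1 were compared with those numbered 13 and 25 because the labels repeat these numbers in every group. P4HA1, P4HA2 and PLOD1 were higher in the samples numbered 1 in all 3 groups, by 4.49, 4.37 and 2.19 times in the fit. CERCAM was higher by 1.28 times, and PLOD3 and P4HB did not pass the test. The plot of levels by sample shows both patterns, with the samples numbered 1 set apart for some genes and the groups set apart for others.

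**Figure D1:**
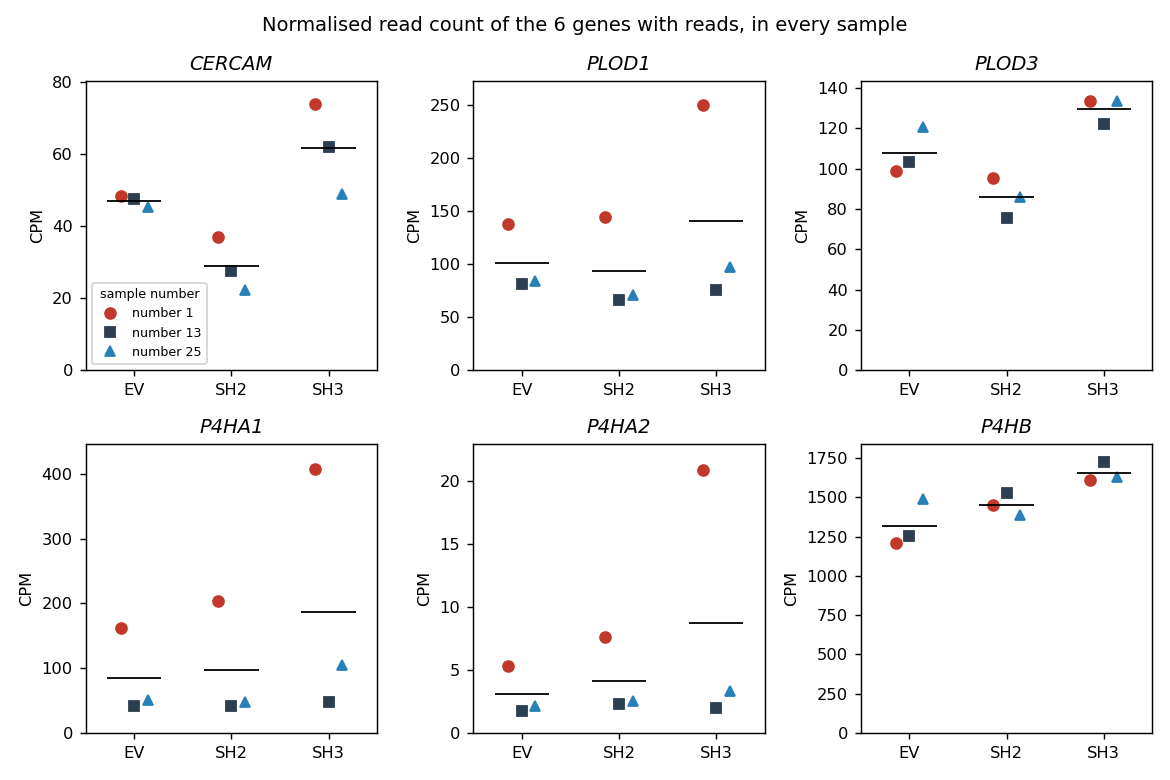
Normalised read count (CPM, linear axis from 0) of the 6 genes with reads, by group on the horizontal axis, with 1 point per sample, shape and colour for the sample number and a line at the group mean. The samples numbered 1 are the highest of each group for P4HA1, P4HA2 and PLOD1, and for CERCAM and PLOD3 all SH3 samples lie above EV and all SH2 samples below it.

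P4HA1 was at 163 CPM in EV, 203 CPM in SH2 and 407 CPM in SH3 among the samples numbered 1. In the samples numbered 13 it was at 41.8, 41.7 and 48.4 CPM in the same order, and in those numbered 25 at 51.5, 47.2 and 105 CPM. Every sample numbered 1 thus lay above the other 6, the highest of which was SH3 number 25, and 14.4% of all genes tested showed such a gap in this direction. In a bulk library, more cells with a transcript and more of it per cell cannot be told apart. The log2 difference was 2.17 (SE 0.14, adjusted p 2.48e-05), and it was 1.999 (SE 0.13, adjusted p 1.10e-06) without SH3 number 1. In this test 3415 of 14199 genes, or 24.1%, were higher in the samples numbered 1 and 3155, or 22.2%, were lower. A call alone was therefore common here, at 46.3% of genes in either direction. The size of the P4HA1 difference exceeded the range from -0.51 to 0.88 that held the middle 90% of all genes, whose median was 0.01.

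P4HA2, the less abundant catalytic subunit, was at 5.31, 7.63 and 20.9 CPM in EV, SH2 and SH3 number 1. It was at 1.73, 2.26 and 1.95 CPM in the samples numbered 13 and at 2.13, 2.53 and 3.35 CPM in those numbered 25. Again the samples numbered 1 did not overlap with the rest, and SH3 number 1 stood far above the other 2 samples with its number. The log2 difference was 2.13 (SE 0.24, adjusted p 3.04e-04) and 1.58 (SE 0.15, adjusted p 1.28e-05) without that library. P4HA2-AS1 moved alongside, at 1.44 ± 1.11 CPM in the samples numbered 1 (SD, n = 3) and 0.330 ± 0.133 CPM in the other 6, and its part in the P4HA2 counts was not tested. P4HB, the partner subunit, was at 1206, 1448 and 1610.3 CPM in EV, SH2 and SH3 number 1 and between 1254 and 1727 CPM in the other 6, so these groups overlapped. Its log2 difference was -0.08 (SE 0.08, adjusted p 0.431).

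Of the lysyl hydroxylases, PLOD1 was at 138 CPM in EV, 145 CPM in SH2 and 250.5 CPM in SH3 among the samples numbered 1. It was at 81.3, 66.0 and 75.9 CPM in the samples numbered 13 and at 83.9, 71.3 and 97.2 CPM in those numbered 25. Here too the samples numbered 1 lay above the other 6. The log2 difference was 1.13 (SE 0.12, adjusted p 1.97e-04) and 0.91 (SE 0.08, adjusted p 7.46e-06) without SH3 number 1. PLOD3 showed no such split. It was at 99.0, 95.4 and 134 CPM in EV, SH2 and SH3 number 1 and between 75.5 and 134 CPM in the other 6, with a log2 difference of 0.05 (SE 0.07, adjusted p 0.623).

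CERCAM was at 48.3, 36.9 and 73.9 CPM in EV, SH2 and SH3 number 1. It was at 47.6, 27.6 and 61.9 CPM in the samples numbered 13 and at 45.3, 22.3 and 49.0 CPM in those numbered 25. Within each group the sample numbered 1 was the highest, but across groups the numbers overlapped. The log2 difference was 0.35 (SE 0.09, adjusted p 0.00969), 0.30 (SE 0.09, adjusted p 0.0245) without SH3 number 1 and 0.24 (SE 0.10, adjusted p 0.0701) without SH2 number 1, where the call was lost. Number 1 exceeded the mean of 13 and 25 by 1.04 times in EV, 1.48 times in SH2 and 1.33 times in SH3. Over the 6 genes tested the median log2 difference was 0.74, with 4 called higher and 0 lower. Of all genes tested 24.1% were called higher and 22.2% lower.

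**Figure D2:**
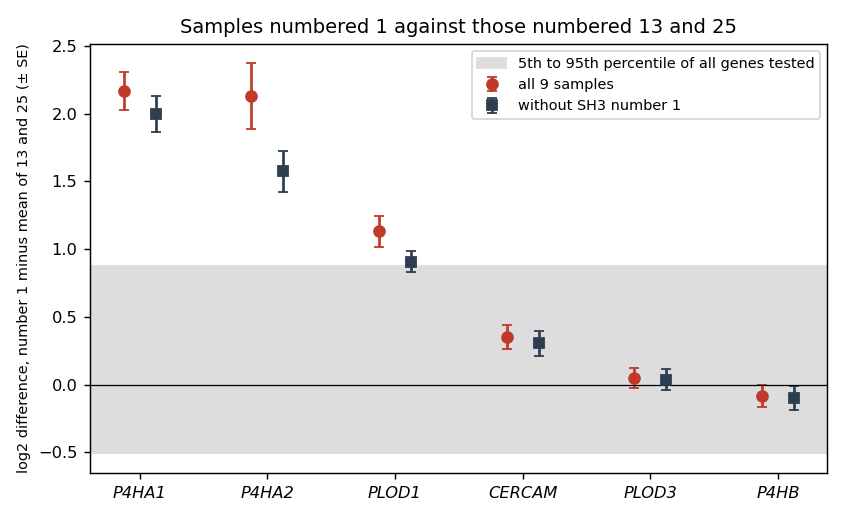
Log2 difference between the samples numbered 1 and the mean of those numbered 13 and 25 for each gene with reads (vertical axis, point with SE from edgeR), from all 9 samples and without SH3 number 1. Grey marks the middle 90% of all genes tested in the fit with all 9 samples. P4HA1, P4HA2 and PLOD1 lie above the grey band from -0.51 to 0.88 in both fits, and CERCAM, PLOD3 and P4HB lie inside it. Without SH3 number 1, PLOD1 at 0.91 (SE 0.08) is close to the upper edge, and no band was drawn for that fit.

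The fold between numbers was not the same in each group. P4HA1 in number 1 exceeded the mean of 13 and 25 by 3.49 times in EV, 4.57 times in SH2 and 5.30 times in SH3, and P4HA2 by 2.74, 3.19 and 7.88 times. For PLOD1 the same ratios were 1.67, 2.11 and 2.90 times. A fit with a separate number difference in each group, chosen after the data were seen, called 0 of 14199 genes in edgeR for SH3 against EV, with 7.89% of genes at an unadjusted p under 0.05. There the P4HA2 number difference was 1.53 larger on the log2 scale in SH3 than in EV (SE 0.45, adjusted p 0.606) and that of PLOD1 0.79 larger (SE 0.21, adjusted p 0.594). A larger number difference in SH3 than in EV was thus not shown for any of the enzyme genes tested, and CERCAM was given no test. With 3 residual degrees of freedom and no gene called at all, this fit could not exclude such a difference either.

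The shRNA groups were compared next, SH3 with SH2 and each with EV. The 3 comparisons share samples, so their values stand side by side and are not separate evidence. In every same-numbered pair CERCAM and PLOD3 were higher in SH3 than in EV and lower in SH2 than in EV. For PLOD3 the SH3 level was 1.40, 1.62 and 1.55 times the SH2 level in the pairs numbered 1, 13 and 25. For CERCAM the ratio was 2.003, 2.24 and 2.20 times, and this difference is what CERCAM was chosen for. P4HB was also higher in every SH3 sample than in any EV or SH2 sample, while P4HA1, P4HA2 and PLOD1 overlapped between all groups. Over all genes tested, the SH3 samples lay above every SH2 sample for 2.23%, the SH2 samples below every EV sample for 7.8% and the SH3 samples above every EV sample for 4.81%. The share of genes with SH2 and SH3 on opposite sides of EV in every same-numbered pair is not given here.

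CERCAM averaged 47.1 ± 1.60 CPM in EV, 28.9 ± 7.41 CPM in SH2 and 61.6 ± 12.5 CPM in SH3 (SD, n = 3 each). The EV samples lay close together, whereas in both shRNA groups number 1 was the highest and number 25 the lowest. No sample of one group reached into another, although SH3 number 25 at 49.0 CPM came close to EV number 1 at 48.3 CPM. Between same-numbered samples the log2 difference of SH3 from SH2 was 1.00, 1.16 and 1.14 (mean 1.10, SD 0.09). That of SH2 from EV was -0.39, -0.78 and -1.03, and that of SH3 from EV was 0.61, 0.38 and 0.11. The SH3 to SH2 gap was thus nearly the same in the 3 pairs, while the position of EV between them shifted. The fitted log2 difference between SH3 and SH2 was 1.09 (SE 0.19), and 0.94 (SE 0.18) without SH3 number 1.

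PLOD3 was at 99.0, 103 and 121 CPM in EV, at 95.4, 75.5 and 86.1 CPM in SH2 and at 134, 122 and 134 CPM in SH3, each in the order 1, 13, 25. The group means were 108 ± 11.6, 85.7 ± 9.97 and 129.7 ± 6.72 CPM (SD, n = 3). All SH3 samples lay above all EV samples, and all SH2 samples lay below them. The log2 difference between SH3 and SH2 was 0.60 (SE 0.11), with an unadjusted p of 4.58e-04 and an adjusted p of 0.998. In the paired edgeR fit, which adds the sample number as a block, it was 0.60 (SE 0.09, adjusted p 0.0407) and passed.

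Without the block edgeR called 0 of 14199 genes in each of the 3 comparisons, with 2.06% of genes for SH3 against SH2, 5.37% for SH2 against EV and 5.09% for SH3 against EV at an unadjusted p under 0.05. DESeq2 without the block called 0.0775%, 0.155% and 0.183% in the same order, PLOD3 in the first among them (adjusted p 0.00732 in DESeq2). With the block edgeR called 15 genes for SH3 against SH2, or 0.106% of those tested, 40 for SH2 against EV (0.282%) and 59 for SH3 against EV (0.416%). DESeq2 with the block called 1.09%, 2.6% and 3.34% of the genes. Of the 5 enzyme genes tested it called PLOD1 and PLOD3 between SH3 and SH2, PLOD3 between SH2 and EV, and P4HA1, P4HA2 and P4HB between SH3 and EV. PLOD3 was the only one of the 5 enzyme genes tested that the paired edgeR fit called, and in SH3 against SH2 alone. Against EV its paired log2 differences were -0.33 in SH2 (SE 0.09, adjusted p 0.106) and 0.27 in SH3 (SE 0.09, adjusted p 0.144). The first of these passed in DESeq2 with the block (adjusted p 0.0255) and in the paired edgeR fit without SH3 number 1 (adjusted p 0.0170). For SH2 against EV the latter fit called 1604 genes, against 40 with all samples, so a call was far more common there. The PLOD3 call between SH3 and SH2 was kept without SH3 number 1 (log2 difference 0.59, adjusted p 0.0108), where 103 genes were called. The PLOD3 call was lost without EV number 25, SH3 number 25 or any 1 of the SH2 samples (adjusted p 0.0767 to 0.416). Over those 5 fits its log2 difference stayed between 0.56 and 0.70.

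**Figure D3:**
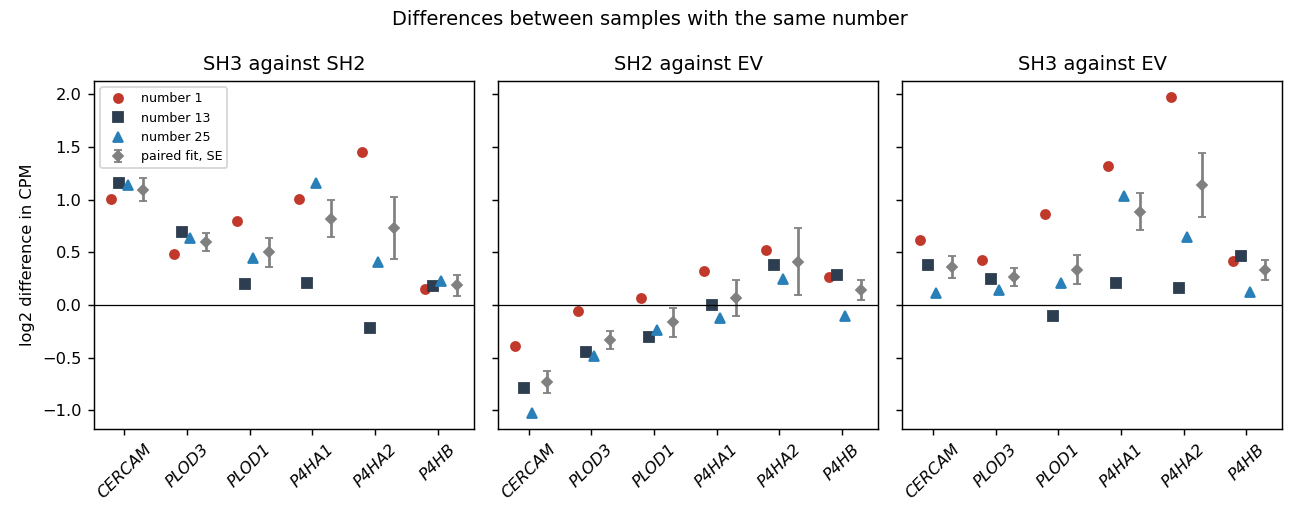
Log2 difference in CPM between samples of the same number (coloured points) and from the paired edgeR fit (grey diamond with SE) for the 6 genes with reads, in the 3 comparisons of groups. CERCAM and PLOD3 lie above 0 in all pairs of SH3 against SH2 and SH3 against EV and below 0 in all pairs of SH2 against EV, while the pairs of P4HA1 and P4HA2 spread widely.

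P4HB averaged 1317 ± 153 CPM in EV, 1453 ± 69.2 CPM in SH2 and 1654 ± 63.2 CPM in SH3 (SD, n = 3). The lowest SH3 sample, at 1610.3 CPM, was above the highest sample of the other groups, SH2 number 13 at 1525 CPM. Its log2 difference of SH3 from EV was 0.33 (SE 0.11, adjusted p 0.967), and 0.33 (SE 0.10, adjusted p 0.127) in the paired fit. SH3 exceeded SH2 by 0.19 on the log2 scale (SE 0.11, adjusted p 0.998). For SH3 against EV it passed in DESeq2 with the block (0.33, adjusted p 0.00901) and in neither edgeR fit.

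For P4HA1, P4HA2 and PLOD1 the direction of SH3 against the other groups rested on SH3 number 1 in the fit without the block. With all samples the log2 difference of SH3 from SH2 was 0.94 for P4HA1 (SE 0.87), 1.07 for P4HA2 (SE 0.86) and 0.59 for PLOD1 (SE 0.46), with an adjusted p of 0.998 each. Without that library the values were -0.34, -0.65 and -0.12 (SE 0.76, 0.62 and 0.34), so the direction turned. This fit then set SH3 numbers 13 and 25 against all 3 numbers of SH2, so the numbers were not balanced. In the paired fit without the same library the SH3 to SH2 direction did not turn for PLOD1 or P4HA2. PLOD1 was at 0.26 (SE 0.09, adjusted p 0.288) and P4HA2 at 0.07 (SE 0.19, adjusted p 0.973). In the paired fit without the same library, P4HA1 was still 0.64 higher in SH3 than in SH2 (SE 0.16, adjusted p 0.0905) and 0.72 higher than in EV (SE 0.15, adjusted p 0.0293), against 0.89 from EV with all samples (SE 0.17, adjusted p 0.0537). For SH3 against EV the paired fit called 368 genes without that library and 59 with all samples. SH3 number 25 carried part of the P4HA1 difference, at 105 CPM against 51.5 CPM in EV and 47.2 CPM in SH2, while the samples numbered 13 were at 48.4, 41.8 and 41.7 CPM. Without any sample numbered 1 the paired P4HA1 difference of SH3 was 0.71 from SH2 (SE 0.15, adjusted p 0.0442). From EV it was 0.65 (SE 0.15, adjusted p 0.0349). That fit called 0.916% of genes for SH3 against SH2 and 2.42% for SH3 against EV. The P4HA1 calls for SH3 thus depended on which libraries entered and on the model.

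Other genes of the pathway were read from lists in all 9 samples, SH3 number 1 among them, with p values adjusted over all genes tested. Of 9 other genes for collagen hydroxylation and glycosylation, 7 passed the filter. In the samples numbered 1, a higher level was called for 4 of them and a lower level for 1, and 2 did not pass, with a median log2 difference of 0.26, where 24.1% of all genes were called higher and 22.2% lower. The prolyl 3-hydroxylase genes LEPREL2 and LEPRE1 were higher by 0.48 (SE 0.17, adjusted p 0.0382) and 0.29 (SE 0.05, adjusted p 0.00199), as was LEPREL4, a partner protein of lysyl hydroxylation, by 0.52 (SE 0.15, adjusted p 0.0189). COLGALT1, which adds galactose to hydroxylysine and to which CERCAM is related, was lower, at 268 ± 6.84 CPM (SD, n = 3) against 345 ± 34.4 CPM (SD, n = 6), a log2 difference of -0.36 (SE 0.07, adjusted p 0.00315). Its relative COLGALT2 was just called higher, by 0.26 (SE 0.10, adjusted p 0.0491). P4HA3, the remaining catalytic prolyl hydroxylase subunit, did not exceed 0.0693 CPM and LEPREL1 had no count.

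Of 26 genes for collagen folding, export and processing, 23 passed the filter, with 6 higher, 3 lower and 14 not called, and a median of -0.06. Over all genes tested 24.1% were called higher and 22.2% lower, 46.3% together, against 9 of 23 here. KDELR1, a retrieval receptor of the secretory pathway, and LOXL1 were among the higher ones. LOX, a lysyl oxidase that cross-links collagen, was at 14.2 ± 7.55 CPM in the samples numbered 1 (SD, n = 3) and 4.35 ± 0.955 CPM in the others, a log2 difference of 1.64 (SE 0.20, adjusted p 3.94e-04). ADAMTS14, which trims procollagen, was higher by 1.59 (SE 0.23, adjusted p 7.38e-04), PCOLCE, an enhancer of procollagen trimming, by 0.69 (SE 0.18, adjusted p 0.00923) and LOXL3 by 0.64 (SE 0.08, adjusted p 3.94e-04). The chaperone genes SERPINH1 and HSPA5 did not pass (adjusted p 0.0814 and 0.0730), with values of 0.34 and -0.25. The protein disulphide isomerase PDIA4 was lower by 0.39 on the log2 scale, at 110 ± 16.9 CPM against 143 ± 13.4 CPM (adjusted p 0.00410). BMP1, which also trims procollagen, was lower as well, by 0.22 on the log2 scale (adjusted p 0.0145), and ADAMTS3, a relative of ADAMTS14, was at -0.16 (adjusted p 0.270).

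Among 10 other hydroxylases that use 2-oxoglutarate, 9 passed the filter, with 4 higher, 2 lower and 3 not called (24.1% and 22.2% over all genes), and a median of 0.06. P4HTM, a membrane-bound prolyl hydroxylase, was higher by 0.75 (SE 0.11, adjusted p 8.07e-04), EGLN1, which hydroxylates hypoxia-inducible factor, by 0.57 (SE 0.08, adjusted p 8.45e-04) and the lysyl hydroxylase JMJD6 by 0.38 (SE 0.07, adjusted p 0.00156). OGFOD1 was lower by 0.32 on the log2 scale (adjusted p 0.0107), and EGLN3 had no count. Of 24 textbook targets of hypoxia-inducible factors outside the 7 genes, 22 were higher in the samples numbered 1 and 0 were lower, against 24.1% and 22.2% of all genes, with a median of 0.70 against 0.01 over all genes. VEGFA and NDRG1 were not called, at 0.21 and 0.31 (adjusted p 0.0535 and 0.104). The largest differences were those of PFKFB4 (4.04, SE 0.29), ALDOC (3.38, SE 0.32) and BNIP3 (2.91, SE 0.23), which serve glycolysis and mitochondrial turnover, and of CA9, whose mean of 0.0350 CPM outside the samples numbered 1 was under the level taken as seen, so that no size is given. The summed level of these targets was 8189.7 to 14186.5 CPM in the samples numbered 1, highest in SH3, and 6248 to 8203 CPM in the others. These ranges overlapped. Oxygen was not measured, and the part of any such condition in the P4HA1, P4HA2 and PLOD1 values was not tested.

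**Figure D4:**
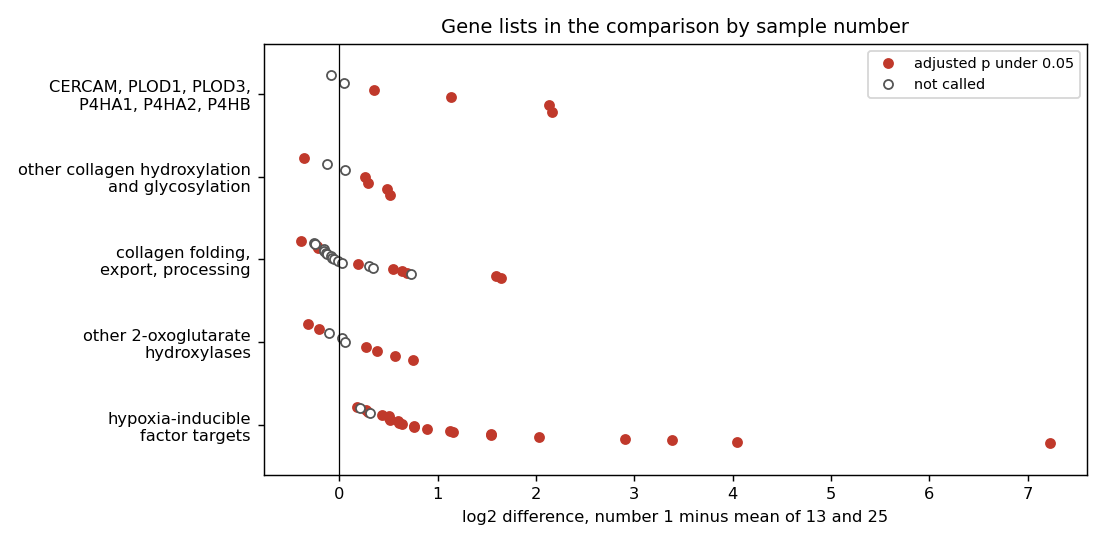
Log2 difference between the samples numbered 1 and the mean of those numbered 13 and 25 (horizontal axis) for each gene tested in the 5 lists, 1 point per gene, filled where the adjusted p was under 0.05. Of the 24 hypoxia-inducible factor targets 22 are filled and to the right of 0, while the collagen folding list has a median of -0.06. The point farthest right is CA9, whose fitted value rests on levels near 0 in the other samples.

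In the comparisons of shRNA groups none of these lists held a called gene without the block, and in the paired fit only the hypoxia-inducible factor list did. There CA9 was called between SH3 and SH2 (adjusted p 0.0476), and CA9 and NDRG1 between SH3 and EV. CA9 was at 4.94 ± 7.08 CPM in the samples numbered 1 (SD, n = 3), at most 13.1 CPM. In the others its mean of 0.0350 CPM was under the level taken as seen, so its calls rest on the samples numbered 1. The median SH3 to SH2 log2 difference in the paired fit was 0.11 over the 7 genes for collagen hydroxylation and glycosylation, 0.02 over the folding list and 0.33 over the hypoxia-inducible factor targets, against 0.00 over all genes. COLGALT1 differed between SH3 and SH2 by 0.16 (SE 0.08) and COLGALT2 by 0.39 (SE 0.12), neither of them called.

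The levels of the 6 genes with reads were also set against each other over the 9 samples. Pearson's r of log2 CPM was 0.975 between P4HA1 and PLOD1, 0.971 between P4HA1 and P4HA2 and 0.964 between PLOD1 and P4HA2. It was 0.845 between CERCAM and PLOD3. P4HB had r of 0.06 to P4HA1, 0.01 to PLOD1 and 0.46 to PLOD3. These points share their libraries and the split by number, so the values are descriptions. Among 12641 genes with a mean of at least 1 CPM, those most like CERCAM were TRIT1 (r = 0.945), SP140L (0.939), MACC1 (0.938), ATP6V1A (0.933) and KCNAB2 (0.931). P4HA1 was most like BNIP3 (0.994) and ANKRD37 (0.991), both of the hypoxia-inducible factor list, and P4HA2 most like TXLNB (0.994) and MPI (0.992). For PLOD1 the nearest were ASB3 and GPR75-ASB3 (0.996 each), which share a locus and reads, for PLOD3 FAF1 (0.981) and CDKAL1 (0.954), and for P4HB SFT2D1 (0.935) and HSD17B4 (0.919).

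The genes around CERCAM on chromosome 9 were read as well. Of 15 annotated genes within 100 kb, 7 were in the files and all 7 passed the filter: SWI5, TRUB2, COQ4, SLC27A4, URM1, ODF2 and GLE1. In SH3 against SH2 their paired log2 differences ran from -0.39 (SLC27A4, SE 0.17) to -0.05 (SWI5, SE 0.12), where CERCAM had 1.10 (SE 0.11), and none was called in any shRNA comparison with or without the block (adjusted p 0.392 to 0.891 for SH3 against SH2 with it). The nearest coding neighbours, ODF2 at 17835 bp and URM1 at 19735 bp, were at 121 ± 11.1 and 132 ± 0.765 CPM in SH2 and at 115 ± 19.4 and 124 ± 13.3 CPM in SH3 (SD, n = 3). For both genes SH2 and SH3 differed by less than the SD within SH3, but for URM1 by more than the SD within SH2.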

How the data were processed

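Messenger RNA of 9 SKNO-1 samples, 3 each of EV, SH2 and SH3, had been sequenced from unstranded poly(A) libraries. The deposited files hold whole-number counts per RefSeq row on hg19 (GRCh37), not normalized by the authors. The submitters' processing notes name STAR, featureCounts and DESeq2 without versions or roles. Of the 48104 rows, the row with the highest total over the 9 samples stood for each symbol, so a shift between isoforms could move a level. Reads shared by isoforms were counted in each row.

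Counts were tested with edgeR 4.0.16 in R 4.3.3 by its quasi-likelihood F test, with TMM scaling. filterByExpr (smallest count 10, smallest total 15) kept 14199 genes, and Benjamini-Hochberg adjustment ran over all of them, with 0.05 as the threshold. The main fit of the groups left out the sample number (6 residual degrees of freedom), so the difference between numbers stayed in its error. The biological coefficient of variation, edgeR's measure of spread between samples, was 0.192 in this fit and 0.0875 with the number. The number comparison set number 1 against the mean of 13 and 25 with group as a term (4 residual degrees of freedom). The SE is the log2 difference divided by the square root of F. The paired fit adds the number as a block. The numbers come from the labels and pair the samples: around their group means, log2 CPM values correlated at 0.398 to 0.731 in all 9 same-numbered pairs and at most at 0.306 in others. DESeq2 1.42.0, other scaling and filters, a length correction and leaving out each sample were alternatives. The fits were tested on simulated data. Lengths and GRCh37 positions come from the lifted GENCODE annotation, promoters from RefSeq (GRCh38.p14).

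The 7 genes and the lists were chosen with earlier results of these data known. Named from each list were up to 4 called genes with the largest log2 difference, and COLGALT2, KDELR1, LOXL1, PDIA4, BMP1, ADAMTS3, SERPINH1, HSPA5, VEGFA, NDRG1 and the genes without counts were added after their values were seen. Protein sequences were not used here.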

Additional observations from a re-analysis of the deposited data

Results flagged for a closer look

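SH2 and SH3 lay on opposite sides of EV in every same-numbered pair for CERCAM and for PLOD3. The share of all genes with this pattern is not given here, so how unusual it is stays unknown. The mean log2 difference between SH3 and SH2 over the 3 pairs was 1.10 for CERCAM and 0.60 for PLOD3. ASXL2 itself was 1.04 lower in SH2 and 1.13 lower in SH3 than in EV on the log2 scale in the paired fit. CERCAM was chosen for this difference, so its pattern was not tested. For PLOD3 the SH3 to SH2 difference passed in the paired edgeR fit (adjusted p 0.0407) and in DESeq2 with or without the block, but not in edgeR without the block. Against EV, PLOD3 did not pass in the paired edgeR fit (adjusted p 0.106 for SH2 and 0.144 for SH3). For SH2 against EV it passed in DESeq2 with the block (adjusted p 0.0255) and in the paired fit without the samples numbered 1 (adjusted p 0.00273). In this comparison these fits called 2.6% and 1.9% of genes in that order.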

How the results depend on the processing

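Without the block edgeR called 0 genes between any groups, so the number of calls depended on the model. For SH3 against SH2, SH2 against EV and SH3 against EV in that order, the replicate block gave 15, 40 and 59 genes, DESeq2 gave 11, 22 and 26, DESeq2 with the block 155, 369 and 474, the block with a length correction 17, 6 and 50, and the block without the samples numbered 1 (added after seeing the data) 129, 267 and 341. Of the 5 enzyme genes tested, between SH3 and SH2 the block called 1, DESeq2 1, DESeq2 with the block 2, the block with length correction 1 and the block without the samples numbered 1 called 2. Between SH2 and EV, DESeq2 with the block called 1 and the block without the samples numbered 1 called 1, and between SH3 and EV they called 3 and 1. Leaving out 1 sample, without or with the block, gave 0 to 257 genes for SH3 against SH2, 0 to 1604 for SH2 against EV, 0 to 368 for SH3 against EV and 4813 to 6282 for the number comparison, where 6570 were called with all samples. Counts over 100 between groups came from leaving out SH3 number 1 or SH3 number 13 in the fit with the block. The members called ranged from 0 to 3, 0 to 1, 0 to 2 and 3 to 4.

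Over 480 alternatives for single genes with a test, 438 kept direction and call, 23 gained a call, 2 lost one and 17 changed sign. Of 78 CERCAM values without a test, 73 moved by less than 1 SD and 5 by more. The SD was that of the 3 same-numbered pair differences in each comparison. It was 0.086 for SH3 against SH2, 0.32 for SH2 against EV and 0.25 for SH3 against EV. All 5 larger moves were in SH3 against SH2, where CERCAM stayed between 0.94 and 1.30. Both lost calls were CERCAM in the number comparison, without SH2 number 1 and without the group term (0.33, adjusted p 0.389). With 1 sample left out, the log2 differences of PLOD1, P4HA1 and P4HA2 ran from -0.12 to 1.04, from -0.34 to 2.07 and from -0.65 to 1.86 for SH3 against SH2, and from -0.23 to 0.78, from -0.16 to 2.002 and from -0.23 to 2.17 for SH3 against EV, with the negative values without SH3 number 1. For SH2 against EV they ran from -0.56 to 0.19, from -0.94 to 1.06 and from -0.36 to 1.10, and P4HA1 was at -0.056 with the block without the samples numbered 1. PLOD3 in the number comparison ran from -0.053 to 0.15. These sign changes were in values not called, and their cause was not tested. With the block and without SH3 number 1, PLOD1, P4HA1 and P4HA2 were at 0.26, 0.64 and 0.07 for SH3 against SH2. For SH3 against EV they were at 0.11, 0.72 and 0.48 in that fit. In edgeR with all samples the block changed no call of a member other than PLOD3 between SH3 and SH2. In DESeq2 the block added PLOD1 between SH3 and SH2 (adjusted p 0.0184), PLOD3 between SH2 and EV (0.0255), and P4HA1, P4HA2 and P4HB between SH3 and EV (0.0265, 0.0141 and 0.00901).

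The interaction fit had 3 residual degrees of freedom. P4HA2 rested on 51 to 613 counts per sample and PLOD2 on 0.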
